A study of Mus musculus with 12 samples.

Results

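The collecting duct genes described here were 35 genes, out of 24062 in the count table, chosen as a list of symbols that mark the principal and intercalated cells of the kidney collecting duct. The list was taken whole and members were matched by symbol, but it was drawn up with earlier results of these data known. It held 12 principal cell genes for water, urea and sodium transport and 15 intercalated cell genes for acid-base transport or for receptors. It also held 7 transcription factors and the sialyltransferase St6gal1. RNA-seq was made from whole kidneys of 12 adult mice of a Pkd1 model, the gene for polycystin-1. All mice had been induced with tamoxifen, were 6 to 8 weeks old, and were operated on 4 weeks before the kidney was taken. The 4 groups of 3 mice were CreMinus with a sham operation, CrePlus with a sham operation, CreMinus after unilateral nephrectomy (UNx, removal of 1 kidney) and CrePlus after UNx. CreMinus mice therefore had the same tamoxifen, and sham mice had the operation without loss of a kidney. The sources used here do not give the promoter that drives Cre, the deleted part of Pkd1 or the sex of the mice.

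The collecting duct is the last tubule segment to set the composition of urine, and its cells are of 2 main types. Principal cells reabsorb sodium through the epithelial sodium channel under aldosterone, and water through aquaporin 2, which vasopressin moves to the apical membrane by way of its V2 receptor. Intercalated cells move acid and base: type A cells secrete protons with a vacuolar proton pump (V-ATPase) and return bicarbonate through the anion exchanger AE1, and type B cells secrete bicarbonate through pendrin. In polycystic kidney disease many cysts arise from this segment.

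All 35 genes passed the filter on low counts, which kept 14970 genes. Per kilobase of exon the highest mean levels were those of Car2 at 196 CPM per kb (CPM, read counts scaled to library size by TMM), Hsd11b2 at 112, Aqp2 at 92.9, Atp6v0a4 at 82.2 and Rhcg at 68.1. The lowest were Elf5 at 0.148, Slc26a7 at 0.25 and Slc14a2 at 0.746 CPM per kb. The defining genes of both cell types were thus present in every library. In whole kidney RNA, fewer cells of a type and less RNA per cell cannot be told apart. Several members also share exon sequence with neighbouring genes, among them Atp6v0a4 with Tmem213, Atp6v1c2 with Pdia6 and Avpr2 with Arhgap4. The library kit does not mark the strand, so reads within the shared stretch of such a pair cannot be told apart.

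Library totals were 18914300 to 22480895 counts in 8 libraries, while the first UNx CreMinus library and all UNx CrePlus ones had 41699032 to 42785476. The members held 0.217% to 0.441% of the counts. In 5 libraries the Y-linked genes Ddx3y, Eif2s3y, Kdm5d and Uty were transcribed, and these are called male here, while the other 7, called female, had Xist. The male libraries were replicate 3 of each sham group, replicate 1 of each UNx group and also UNx CrePlus replicate 2. Sex and depth were thus unevenly spread over the UNx groups. After sham surgery Pkd1 averaged 65 ± 10.3 CPM (SD, n = 3) without and 52 ± 10.5 with Cre, and after UNx 56.8 ± 12.9 without and 43.4 ± 3.28 with Cre. Its change with Cre, averaged over surgery, was -0.35 ± 0.13 (log2, SE) with an adjusted p of 0.316 in edgeR. Since the deleted exons are not known, this gene-wide count checks the Cre labels only in part.

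The promoters of the proton pump members are shown because this group holds 3 of the 5 genes that passed a test below. Each is the RefSeq promoter around a transcript start, in build GRCm38.p6. Of 35 members, 21 had an entry in the RefSeq promoter table, and Atp6v0d2 had none. Capitals mark matches, on either strand, to motifs of the factor families among the members. The forkhead motif searched was TGTTTAC, and the grainyhead motif was AACNNGTT. For the GATA factors the letters AGATAA were used. For the ETS factors they were CGGAAG, and a longer motif of the Tfcp2l1 type was also searched.
Atp6v1g3 (chr1:138273488-138273787, plus strand): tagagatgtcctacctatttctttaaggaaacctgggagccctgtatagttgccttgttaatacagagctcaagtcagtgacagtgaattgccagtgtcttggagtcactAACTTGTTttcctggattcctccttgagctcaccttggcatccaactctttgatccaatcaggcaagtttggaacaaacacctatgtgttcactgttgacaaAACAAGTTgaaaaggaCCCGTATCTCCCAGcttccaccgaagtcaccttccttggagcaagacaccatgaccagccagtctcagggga
Atp6v1c2 (chr12:17324681-17324980, minus strand): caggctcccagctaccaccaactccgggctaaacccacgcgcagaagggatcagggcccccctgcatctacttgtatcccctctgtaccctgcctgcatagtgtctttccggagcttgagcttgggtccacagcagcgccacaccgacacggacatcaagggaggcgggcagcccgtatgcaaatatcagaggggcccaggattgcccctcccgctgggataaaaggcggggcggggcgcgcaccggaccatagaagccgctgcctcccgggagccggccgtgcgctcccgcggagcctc
Atp6v1b1 (chr6:83742767-83743066, plus strand): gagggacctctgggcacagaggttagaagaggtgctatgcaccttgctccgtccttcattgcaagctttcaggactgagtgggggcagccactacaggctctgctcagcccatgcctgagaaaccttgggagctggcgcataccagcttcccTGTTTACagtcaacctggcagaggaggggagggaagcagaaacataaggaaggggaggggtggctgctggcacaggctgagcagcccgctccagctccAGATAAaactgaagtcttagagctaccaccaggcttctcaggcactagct
Atp6v0a4 (chr6:38124537-38124836, minus strand): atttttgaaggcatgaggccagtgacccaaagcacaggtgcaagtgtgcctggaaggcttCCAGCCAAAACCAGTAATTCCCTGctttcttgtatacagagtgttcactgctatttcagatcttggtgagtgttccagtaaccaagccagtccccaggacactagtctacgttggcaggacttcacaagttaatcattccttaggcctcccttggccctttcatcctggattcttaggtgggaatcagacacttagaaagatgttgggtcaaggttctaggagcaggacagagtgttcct

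The Atp6v1g3 promoter held 2 grainyhead matches, AACTTGTT 140 bases and AACAAGTT 38 bases before the start, and 1 Tfcp2l1 type match 22 bases before it. In Atp6v1b1 a forkhead match lay 98 bases before the start and a GATA match at the start itself. Atp6v0a4 held 2 overlapping Tfcp2l1 type matches, and Atp6v1c2 held none of the motifs. Genes can have several promoters in the table. Among all 32851 promoters, 3.65% held the forkhead, 4.2% the grainyhead, 11.2% the GATA, 16.9% the ETS and 29.5% the Tfcp2l1 type motif. Of the 31 promoters of the 21 members, 2 held the forkhead motif, 1 the grainyhead, 5 the GATA, 2 the ETS and 15 the Tfcp2l1 type motif. The matches are descriptions of sequence and not measured binding sites.

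The comparison of CrePlus with CreMinus kidneys asks how the collecting duct genes differ when Cre is present. Averaged over surgery, 13 of 15 intercalated cell genes had lower values in CrePlus kidneys, with a median log2 fold change of -0.59. Of 12 principal cell genes, 8 had higher values, with a median of 0.02, and all 14970 genes had a median of 0. No member passed an adjusted p under 0.05 in edgeR's quasi-likelihood test on the 4 group means, against 0.521% of all genes. At an unadjusted p under 0.05 there were 11 members, against 11.8% of all genes. Of these, 10 were lower, against 5.13% of all genes, and Aqp2 was higher. When the sex of the library was added to the model, 5 members were called, all lower in CrePlus and all intercalated cell genes: Atp6v0d2, Atp6v1g3, Kit, Oxgr1 and Atp6v1c2. In that model 1.97% of all genes were called, and 0.641% were called lower. DESeq2 with the sex term called 11 members, against 4.21% of all genes. These were the same 5, with Atp6v1b1, Insrr, Rhbg, Slc26a4 and the principal cell gene Sgk1 also lower, and Aqp2 higher. The plot of Cre effects by role shows both fits for each gene.

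**Figure D1:**
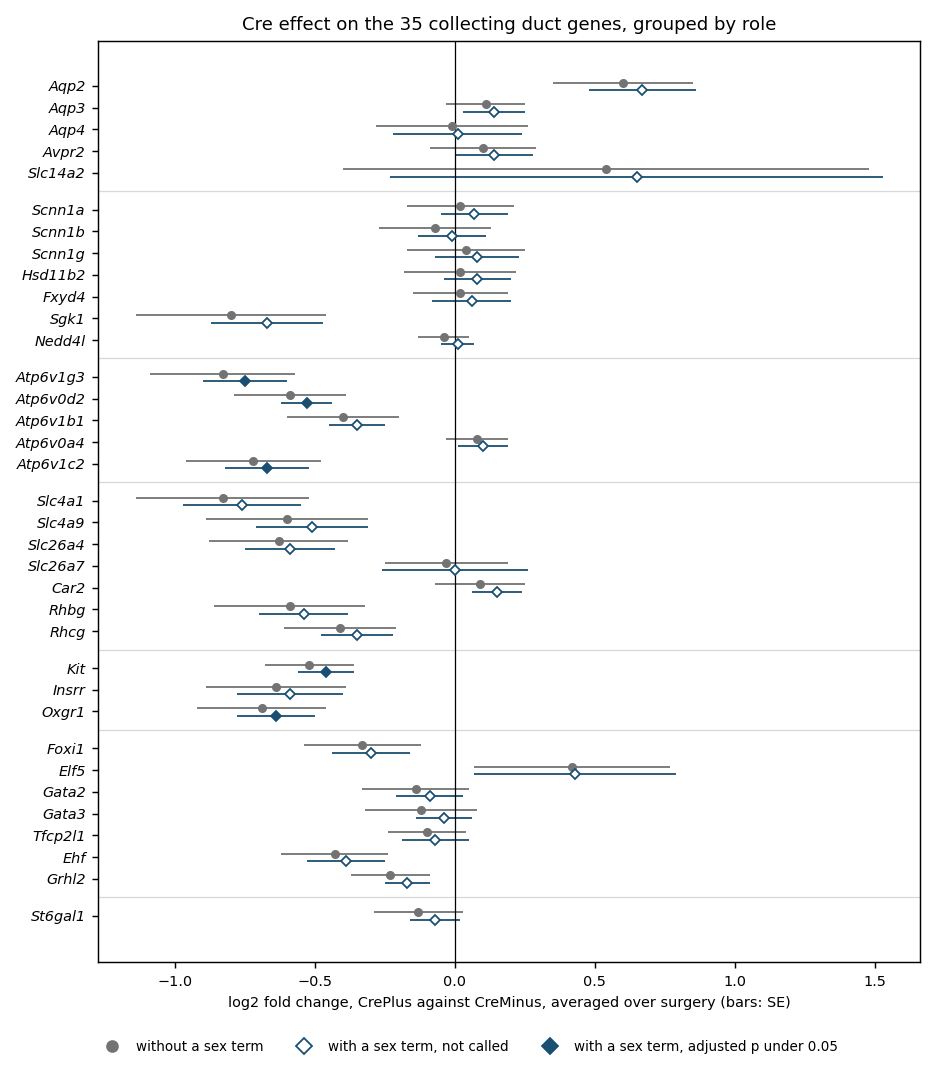
Log2 fold changes of CrePlus against CreMinus kidneys, averaged over surgery, for the 35 genes in order of role, with bars for the SE. Circles are the fit on 4 group means and diamonds the fit with a sex term. Filled diamonds are the 5 genes with an adjusted p under 0.05 with the sex term, and 13 of the 15 intercalated cell genes, from Atp6v1g3 to Oxgr1, lie left of 0 in the fit on group means.

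Within each operation the median of the intercalated cell genes was below 0, while that of the principal cell genes differed in sign. In sham kidneys the Cre effect had a median of -0.42 over the intercalated and 0.1 over the principal cell genes. No member was called there, against 0.0267% of all genes, and 1 had an unadjusted p under 0.05, against 4.05%. In UNx kidneys the medians were -0.69 and -0.08. Again no member was called, against 0.14% of all genes, and 6 had an unadjusted p under 0.05, against 10.7%, all of them intercalated cell genes. With the sex term no member was called within either operation, where 0.0668% of all genes were called in sham and 0.748% in UNx kidneys.

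The vacuolar proton pump has a V1 part that splits ATP and a membrane part V0 that carries protons, and the 5 members are the subunit forms enriched in intercalated cells. Of these, 4 of 5 had lower values with Cre (median -0.59, range -0.83 to 0.08). Atp6v1g3, the G subunit form of the V1 stalk, was at 110, 87.2 and 70.9 CPM without and 47.1, 85.4 and 33.6 with Cre after sham surgery, and at 63.8, 87.1 and 112 without and 38.5, 30.9 and 65.5 with Cre after UNx. The groups overlapped through the second sham CrePlus library and the third UNx CrePlus library, both female. Its Cre effect was -0.83 ± 0.26 (log2, SE; adjusted p = 0.244 in edgeR), and with the sex term it fell by 0.75 ± 0.15 (adjusted p = 0.0271). Atp6v0d2, the d subunit form of V0, was at 65.3, 61.3 and 50.3 CPM without and 43.7, 53.4 and 28.8 with Cre after sham surgery, and at 45.2, 65.1 and 63.6 without and 30.3, 24.5 and 52.5 with Cre after UNx. In each group its male libraries were the lowest. The Cre effect was -0.59 ± 0.2 (adjusted p = 0.294), and with the sex term it fell by 0.53 ± 0.09 (adjusted p = 0.016).

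Atp6v1c2, a C subunit form of V1, was at 57.1, 43.5 and 42.2 CPM without and 29.6, 45.2 and 21.1 with Cre after sham surgery, and at 31.3, 40.5 and 52 without and 19.4, 14 and 33.9 with Cre after UNx. Its highest values were in CreMinus kidneys and its lowest in the male UNx CrePlus libraries. The Cre effect was -0.72 ± 0.24 (adjusted p = 0.276), and with the sex term it fell by 0.67 ± 0.15 (adjusted p = 0.048). Atp6v1b1, the B subunit form whose loss causes distal renal tubular acidosis, was at 192, 179 and 152 CPM without and 157, 181 and 91.8 with Cre after sham surgery, and at 134, 155 and 185 without and 94.5, 80.8 and 157 with Cre after UNx. All groups of Atp6v1b1 overlapped, and its Cre effect was -0.4 ± 0.2 (adjusted p = 0.454) and -0.35 ± 0.1 with the sex term (adjusted p = 0.125). Atp6v0a4, the a subunit form of V0, ranged from 324 to 481 CPM over the 12 libraries. It had a Cre effect of 0.08 ± 0.11 (adjusted p = 0.817), and was the only pump member with a higher estimate.

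**Figure D2:**
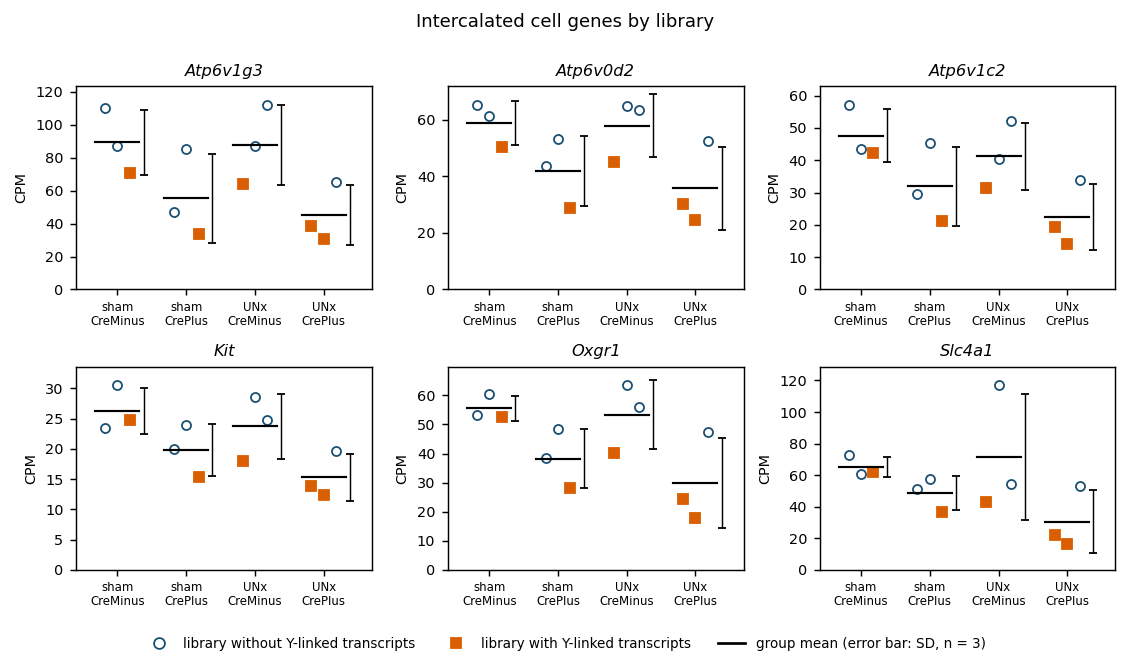
CPM of 6 intercalated cell genes in each of the 12 libraries, by group, with the group mean and SD (n = 3). Filled squares are libraries with Y-linked transcripts. In every panel the lowest library is UNx CrePlus replicate 2, and for Atp6v0d2 the squares lie below the circles of the same group.

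The pump also has subunits that most cells use, which are not members. Of 15 tested subunits outside the list, 10 had lower values with Cre, with a median of -0.1 and a range of -0.2 to 0.34, and none passed (4 had an unadjusted p under 0.05). The smallest p were those of Atp6v0a2 at 0.34 ± 0.11 (adjusted p = 0.246) and Atp6v1h at -0.18 ± 0.06 (adjusted p = 0.296). Their mean log2 level, relative to the mean over libraries, stayed between -0.15 and 0.12 in the 12 libraries. The same measure ranged from -0.87 to 0.47 for the 5 pump members. The difference between the lists was not tested.

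**Figure D3:**
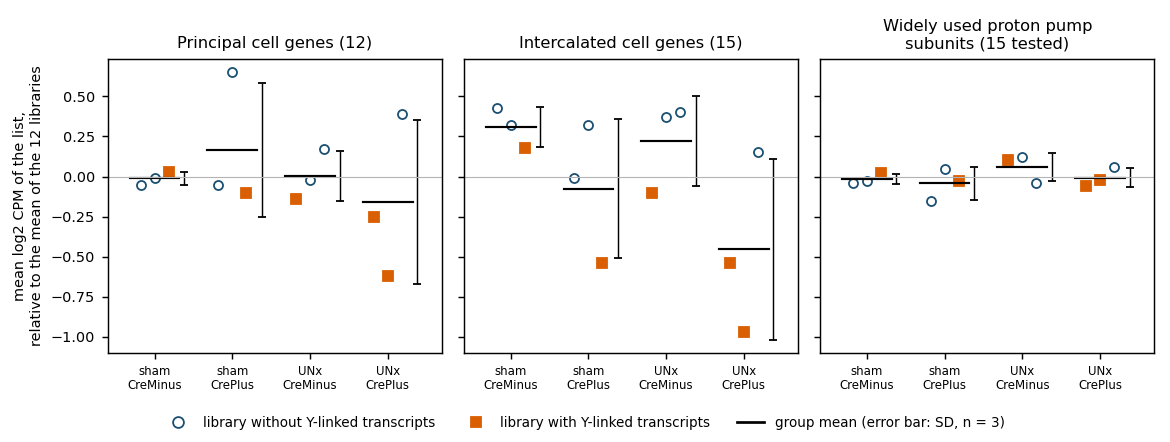
Mean log2 CPM of a list in each library, relative to its mean over the 12 libraries, for the principal cell genes, the intercalated cell genes and the widely used proton pump subunits, with the group mean and SD (n = 3). The intercalated cell genes range from -0.97 to 0.43, the principal cell genes from -0.62 to 0.65 and the other pump subunits from -0.15 to 0.12.

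Among the 7 genes for anion exchange, carbonic anhydrase and ammonia transport, 6 had lower values with Cre (median -0.59). None passed in edgeR with or without the sex term, while DESeq2 with the sex term called Slc26a4 and Rhbg lower. Slc4a1, which encodes the exchanger AE1 of type A cells and of red cells, was at 72.6, 61 and 61.7 CPM without and 51.4, 57.6 and 36.5 with Cre after sham surgery, and at 42.9, 117 and 54.5 without and 22.1, 16.2 and 53.2 with Cre after UNx. In sham kidneys the CrePlus libraries were all below the CreMinus libraries. The Cre effect was -0.83 ± 0.31 (adjusted p = 0.344). It was -0.76 ± 0.21 with the sex term (adjusted p = 0.113). Slc26a4, which encodes pendrin, was at 177, 144 and 140 CPM without and 98.4, 143 and 62.3 with Cre after sham surgery, and at 94.5, 111 and 143 without and 66.5, 41.7 and 112 with Cre after UNx. Its sham groups overlapped only by the second CrePlus library, and the Cre effect was -0.63 ± 0.25 (adjusted p = 0.363).

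Slc4a9, an exchanger of the basolateral membrane of type B cells, was at 140, 109 and 102 CPM without and 83.2, 124 and 52.8 with Cre after sham surgery, and at 61.5, 86.6 and 144 without and 62, 28.8 and 80.1 with Cre after UNx. Its UNx groups overlapped through the male CreMinus library, and its Cre effect was -0.6 ± 0.29 (adjusted p = 0.447). The ammonia transporter genes Rhbg and Rhcg had Cre effects of -0.59 ± 0.27 and -0.41 ± 0.2 (adjusted p = 0.428 and 0.457). Car2, the cytosolic carbonic anhydrase that both cell types use, had an estimate of 0.09 ± 0.16 (adjusted p = 0.84) and ranged from 342 to 668 CPM. Slc26a7, a chloride and bicarbonate exchanger of medullary type A cells, was at 0.951 to 2.39 CPM, from 21 to 74 reads, which limits its precision.

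All 3 receptor genes had lower values with Cre (median -0.64). Kit, a receptor tyrosine kinase for stem cell factor, was at 23.4, 30.5 and 24.8 CPM without and 20, 23.9 and 15.4 with Cre after sham surgery, and at 17.9, 28.5 and 24.8 without and 13.8, 12.3 and 19.7 with Cre after UNx. Both pairs of groups overlapped through a single female CrePlus library. Its Cre effect was -0.52 ± 0.16 (adjusted p = 0.234), the smallest p of the members, and with the sex term it fell by 0.46 ± 0.1 (adjusted p = 0.0408). Oxgr1, the receptor for 2-oxoglutarate, was at 53.3, 60.6 and 52.7 CPM without and 38.4, 48.3 and 28 with Cre after sham surgery, and at 40.3, 63.5 and 56.1 without and 24.4, 17.8 and 47.5 with Cre after UNx. The sham groups of Oxgr1 did not overlap, and in UNx kidneys the female CrePlus library lay above the male CreMinus library. Its Cre effect was -0.69 ± 0.23 (adjusted p = 0.273), and with the sex term it fell by 0.64 ± 0.14 (adjusted p = 0.0451). Insrr, a receptor kinase that senses alkaline pH, was at 65.9, 50.2 and 56.9 CPM without and 41.7, 51.4 and 26.7 with Cre after sham surgery, and at 34.7, 35.4 and 67.9 without and 28, 15.6 and 38.3 with Cre after UNx. Both pairs of groups overlapped, and the Cre effect of Insrr was -0.64 ± 0.25 (adjusted p = 0.357).

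The 5 calls of the fit with the sex term depended on single libraries. Leaving out 1 library at a time gave from 0 to 7 called members. There were 0 without sham CreMinus replicate 3 or without UNx CreMinus replicate 1, the only male libraries of their groups, against 0.681% and 0.885% of all genes. There were 7 without UNx CrePlus replicate 3, against 2.65% of all genes. Atp6v0d2 was called in 10 of these 12 fits, Atp6v1g3 in 6, Atp6v1c2 and Oxgr1 in 3 each and Kit in 2. In all 12 fits the estimates stayed below 0, from -0.62 to -0.45 for Atp6v0d2 and from -0.92 to -0.66 for Atp6v1g3. With terms for both sex and depth, no member was called, against 0.521% of all genes. The intercalated cell genes had a median of -0.58 in that fit.

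The 7 transcription factors of the collecting duct had a median Cre effect of -0.14, with 6 lower and none called. Foxi1, the forkhead factor required for intercalated cells, was at 59.8, 45.6 and 47.7 CPM without and 47.3, 55.8 and 30.4 with Cre after sham surgery, and at 41.7, 48.7 and 48.7 without and 27.4, 21.3 and 51.9 with Cre after UNx. In sham kidneys both female CrePlus libraries lay within the CreMinus range, and in UNx kidneys the female CrePlus library lay above it. The Cre effect of Foxi1 was -0.33 ± 0.21 (adjusted p = 0.547 in edgeR). Ehf, an epithelial ETS factor, was the only member whose UNx groups did not overlap, at 27.4, 27.5 and 31.1 CPM in CreMinus against 20.6, 12.8 and 25.7 in CrePlus kidneys. In sham kidneys Ehf was at 29.8, 35.6 and 26.2 CPM in CreMinus and 22.5, 33.1 and 17.3 in CrePlus, and these groups overlapped. Its Cre effect averaged over surgery was -0.43 ± 0.19 (adjusted p = 0.402). Tfcp2l1, a grainyhead-like factor of the collecting duct, ranged from 333 to 572 CPM with an estimate of -0.1 ± 0.14 (adjusted p = 0.806). Gata2 and Gata3, zinc finger factors of which Gata2 promotes Aqp2 expression, had estimates of -0.14 ± 0.19 and -0.12 ± 0.2. Grhl2, a grainyhead factor of epithelial junctions, had an estimate of -0.23 ± 0.14. Elf5, an ETS factor of principal cells, had 10 to 59 reads per library and an estimate of 0.42 ± 0.35. St6gal1, which adds sialic acid to glycoproteins, had -0.13 ± 0.16.

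In the principal cell genes for water and urea transport, 4 of 5 had higher values with Cre. None passed in edgeR, while DESeq2 with the sex term called Aqp2 higher (0.67 ± 0.18, adjusted p = 0.0111). Aqp2, the vasopressin-regulated apical water channel, was at 138, 97.3 and 74.6 CPM without and 150, 297 and 119 with Cre after sham surgery, and at 96.3, 106 and 110 without and 139, 81.3 and 174 with Cre after UNx. Its highest value was in the second sham CrePlus library, and both pairs of groups overlapped. The Cre effect was 0.6 ± 0.25 (adjusted p = 0.392), and 0.67 ± 0.19 with the sex term (adjusted p = 0.113). Without sham CrePlus replicate 2 and without a sex term, the Aqp2 estimate was 0.35 (adjusted p = 0.461). Avpr2, the V2 receptor, was at 23.7, 22.1 and 17.5 CPM without and 21.1, 36.8 and 19.3 with Cre after sham surgery, and at 21.2, 22.7 and 24 without and 20.5, 14.5 and 28.7 with Cre after UNx. Both of its CrePlus groups spanned the CreMinus range or reached past it, with a Cre effect of 0.1 ± 0.19 (adjusted p = 0.874).

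**Figure D4:**
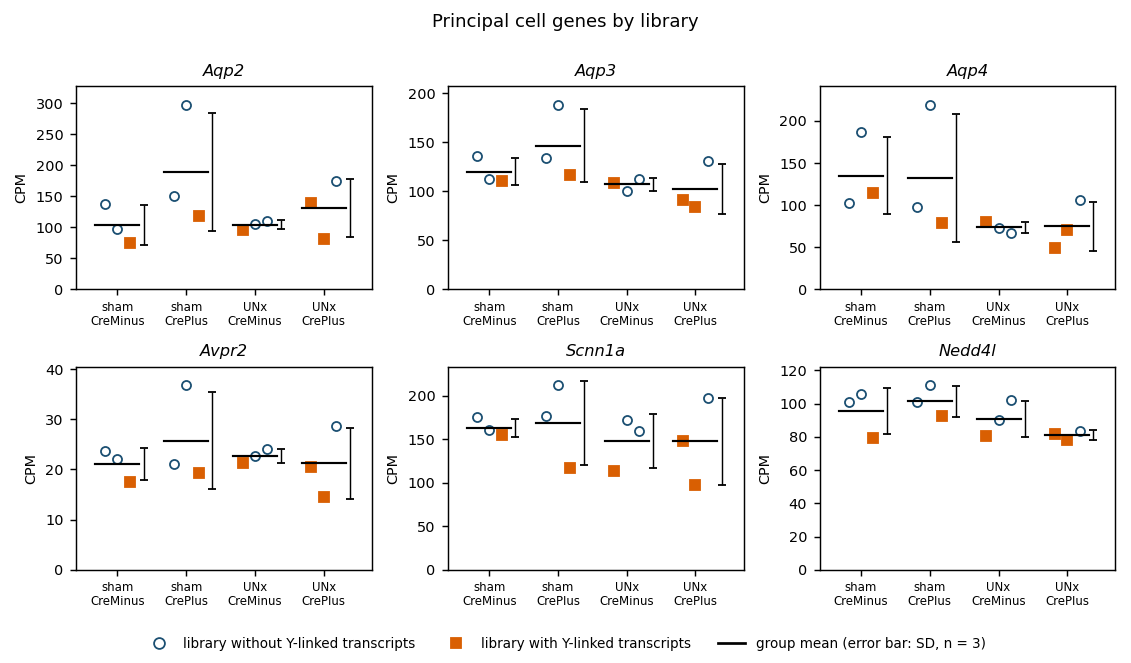
CPM of 6 principal cell genes in each of the 12 libraries, by group, with the group mean and SD (n = 3). Filled squares are libraries with Y-linked transcripts. The highest library is sham CrePlus replicate 2 in all 6 panels, at 297 CPM for Aqp2 and 219 for Aqp4.

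Sodium transport genes had a median Cre effect of 0.02 over 7 members. The 3 subunits of the epithelial sodium channel had Cre effects of 0.02 ± 0.19 for Scnn1a, -0.07 ± 0.2 for Scnn1b and 0.04 ± 0.21 for Scnn1g. Scnn1a was at 175, 160 and 155 CPM without and 177, 212 and 117 with Cre after sham surgery, and at 113, 172 and 159 without and 148, 97.2 and 197 with Cre after UNx. Scnn1b was at 84.5, 83.9 and 68.1 CPM without and 86.5, 103 and 49.1 with Cre after sham surgery, and at 62.8, 73.8 and 99.3 without and 72, 48 and 90.9 with Cre after UNx. Both subunits spread more widely within CrePlus groups than the group means differed. Scnn1g was at 73.3, 83.7 and 70.5 CPM without and 93.6, 105 and 46.8 with Cre after sham surgery, and at 67, 66.4 and 90.3 without and 73.6, 47.9 and 99.3 with Cre after UNx. Hsd11b2, the enzyme that shields the mineralocorticoid receptor from glucocorticoids, was at 232, 208 and 182 CPM without and 234, 293 and 164 with Cre after sham surgery, and at 163, 182 and 256 without and 168, 126 and 264 with Cre after UNx. All of these groups overlapped, and the Cre effect of Hsd11b2 was 0.02 ± 0.2.

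Sgk1, the aldosterone-induced kinase that keeps sodium channels at the membrane, had the largest negative estimate of the principal cell genes at -0.8 ± 0.34 (adjusted p = 0.397). It was at 243, 107 and 91 CPM without and 115, 75.3 and 34.4 with Cre after sham surgery, and at 110, 237 and 154 without and 86.5, 86.2 and 149 with Cre after UNx. Both pairs of groups overlapped by 1 female CrePlus library, and Sgk1 is expressed in many other kidney cells. Nedd4l, the ubiquitin ligase that removes sodium channels, had an estimate of -0.04 ± 0.09 and the narrowest range of the members, with a highest library 1.42 times the lowest. Fxyd4, a regulator of the sodium pump, was at 14.7 to 28.9 CPM with an estimate of 0.02 ± 0.17. Of 29 other genes of the vasopressin and aldosterone pathways, 13 had higher and 16 lower values with Cre (median -0.03), none passed and 3 had an unadjusted p under 0.05. The smallest p were those of Lcn2 at 2.48 ± 0.73 (adjusted p = 0.204) and Cnksr3 at 0.27 ± 0.11 (adjusted p = 0.365). Of 17 tested further intercalated cell genes, 16 had lower values (median -0.2), none passed and 2 had an unadjusted p under 0.05. These were Hepacam2 at -0.61 ± 0.22 (adjusted p = 0.315) and Aqp6 at -0.57 ± 0.24 (adjusted p = 0.39).

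Marker genes of other cells and states were also compared between CrePlus and CreMinus kidneys. All 10 tubular injury genes had higher values (median 1.12), and Cdkn1a passed at 1.64 ± 0.15 (adjusted p = 0.00108), with summed levels after sham surgery of 1140 to 2410 CPM without and 949 to 3820 with Cre, and after UNx of 1340 to 3690 without and 2680 to 4170 with Cre. All 10 loop of Henle and distal tubule genes had lower values (median -0.24, none called), with summed levels of 11400 to 12700, 9280 to 13000, 12800 to 13500 and 8190 to 12200 CPM in the same order. All 11 macrophage genes had higher values (median 0.44, none called), with sums of 131 to 334, 143 to 233, 140 to 163 and 162 to 309 CPM. The 5 podocyte genes all had lower values (median -0.3, none called), with sums of 611 to 745, 370 to 755, 531 to 768 and 381 to 707 CPM. All 8 cell cycle genes (median 0.91), 6 of 8 fibroblast genes (median 0.3), 4 of 6 endothelial genes (median 0.04) and 5 of 10 proximal tubule genes (median -0.07) had higher values, and none of them passed. Wnk1 and Kcnj1 of the distal list and Lcn2 of the injury list also stand in the vasopressin and aldosterone list. None of the marker genes measured in these lists was at 0 in any library. Their part in the results for the collecting duct genes was not tested.

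Male and female libraries also differed in these genes. In the model with the sex term, 34 of 35 members had lower values in male libraries, with a median of -0.53 against -0.02 for all genes. Of these, 23 were called, all lower, against 9.89% of all genes called lower. Called members included 12 of 15 intercalated cell genes, 6 of 7 sodium transport genes and none of the 5 water and urea genes. Sgk1 fell by 0.99 ± 0.22 (log2; adjusted p = 0.00899), Gata3 by 0.62 ± 0.11 (0.00265), Atp6v0d2 by 0.63 ± 0.1 (0.00133) and Hsd11b2 by 0.56 ± 0.13 (0.00961). In 20 of 35 members the male libraries were below the female ones in all 4 groups, against 11.7% of all genes. Among them were Scnn1a, Atp6v1b1, Slc26a4, Rhcg and Gata3. The reading of this coefficient was added after seeing the data, and the male libraries include 3 of the 4 deep ones. Lower values in male libraries were not particular to collecting duct genes. Summed podocyte markers were lower in the male libraries of every group, as at 611 against 745 and 713 CPM in sham CreMinus kidneys. Summed proximal tubule markers went the other way, at 25800 to 54600 CPM in male and 17700 to 24700 in female libraries. The part of such shifts in the members' values was not tested.

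**Figure D5:**
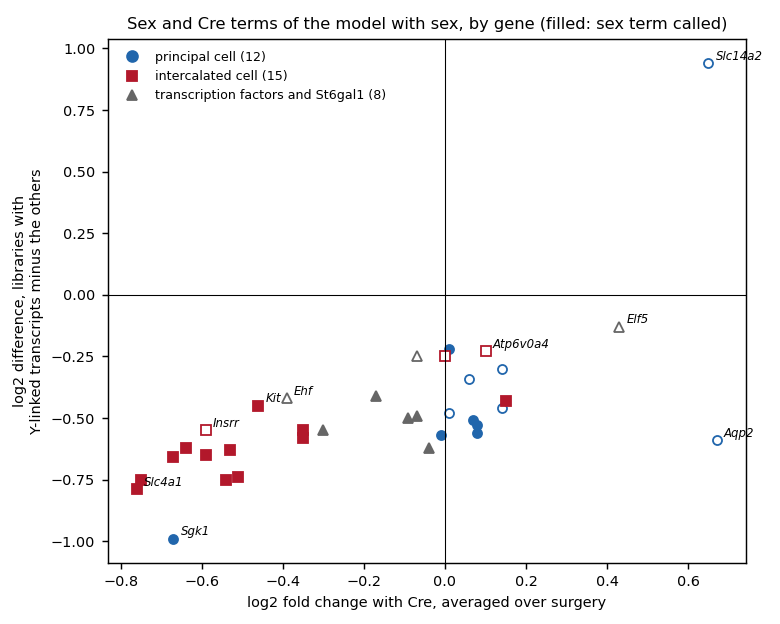
For each of the 35 genes, the difference between libraries with Y-linked transcripts and the others (vertical, log2) against the Cre effect averaged over surgery (horizontal, log2), both from the model with a sex term. Filled symbols are the 23 genes whose sex term was called. All genes but Slc14a2 lie below 0 on the vertical axis.

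Within the 4 strata of surgery and sex, Atp6v1g3, Atp6v0d2, Slc4a1 and Oxgr1 had every CrePlus library below every CreMinus library. This held for 2.66% of all genes, and no member was above in all strata, against 3.64%. The strata held 1 or 2 libraries on each side. In female sham kidneys Atp6v1g3 had a ratio of CrePlus to CreMinus means of 0.672, in male sham kidneys 0.473, in female UNx kidneys 0.659 and in male UNx kidneys 0.543. For Atp6v0d2 these ratios were 0.767, 0.573, 0.815 and 0.607. For Aqp2 they were 1.9, 1.59, 1.6 and 1.14. With the 7 female libraries alone, the intercalated cell genes had a median Cre effect of -0.33 and the principal cell genes one of 0.29. No member was called in that fit, against 0.177% of all genes.

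The groups without overlap were few. In sham kidneys Slc4a1 and Oxgr1 were lower with Cre in all libraries, against 3.49% of all genes, and no member was higher, against 4.66%. In UNx kidneys Ehf alone was lower, against 7.47%, and none was higher, against 8.33%.

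The comparison of UNx with sham kidneys asks how the genes differ 4 weeks after the loss of 1 kidney. Most members had lower values after UNx, 32 of 35 when averaged over Cre status, with a median of -0.2 against 0 for all genes. Leaving out 1 library moved this median between -0.37 and -0.11. The lowest value came without UNx CrePlus replicate 3, the highest when replicate 2 of the sham CrePlus group was left out, and it was -0.12 without UNx CrePlus replicate 2. With the 7 female libraries alone it was -0.05, and 9 of 15 intercalated cell genes were lower. No member and no other gene was called (0%) in CreMinus kidneys, in CrePlus kidneys or in the average. At an unadjusted p under 0.05 there were 1 member in CreMinus kidneys against 1.3% of all genes, 2 in CrePlus kidneys against 6.83% and 3 in the average against 5.66%. The sex term gave no call either (0% of all genes). The 3 UNx CrePlus libraries and 1 UNx CreMinus library were the deep ones, so surgery and depth cannot be told apart in CrePlus kidneys.

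All 5 water and urea genes had lower values after UNx in the average. Aqp4, a basolateral water channel of principal cells, was at 103, 187 and 115 CPM without and 97.9, 219 and 78.7 with Cre after sham surgery, and at 80.4, 73.5 and 67.1 without and 48.7, 70.1 and 106 with Cre after UNx. In CreMinus kidneys its UNx libraries were all below the sham libraries, as were 2.19% of all genes. The UNx effect was -0.85 ± 0.27 (adjusted p = 0.875). Aqp3, the other basolateral water channel, was at 136, 113 and 111 CPM without and 134, 188 and 117 with Cre after sham surgery, and at 108, 100 and 113 without and 91.2, 83.7 and 131 with Cre after UNx. Its groups overlapped, and its UNx effect was -0.35 ± 0.14 (adjusted p = 0.875). Aqp2 had a UNx effect of -0.25 ± 0.25 and Avpr2 one of -0.09 ± 0.19.

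Slc14a2, the urea transporter of the inner medulla, varied most among the members, with a highest library 172 times the lowest. It had 2 to 315 reads, and was at 0.0905, 0.611 and 8.32 CPM without and 0.424, 6.07 and 15.6 with Cre after sham surgery, and at 2.98, 1.84 and 3.34 without and 1.11, 0.468 and 5.45 with Cre after UNx. The spread within the sham groups exceeded any difference between group means, and its UNx effect was -0.89 ± 0.94 (adjusted p = 0.948).

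Nedd4l was the only member whose CrePlus groups did not overlap between UNx and sham. It was at 101, 111 and 92.2 CPM in sham CrePlus against 81.8, 77.9 and 83.4 in UNx CrePlus kidneys, a lower range that 5.05% of all genes shared. In CreMinus kidneys it was at 101, 106 and 79.5 CPM after sham and 80.2, 89.9 and 102 after UNx, and these groups overlapped. Its UNx effect averaged over Cre status was -0.2 ± 0.09 (adjusted p = 0.875). No member was higher without overlap after UNx, against 2.67% of all genes in CreMinus and 4.73% in CrePlus kidneys. Among the intercalated cell genes 13 of 15 had lower values after UNx (median -0.24), and none had an unadjusted p under 0.05.

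The interaction asks whether the Cre effect differs between UNx and sham kidneys. No member and no other gene was called (0%), and no member had an unadjusted p under 0.05, against 1.85% of all genes. The median over members was -0.23, and -0.04 with the sex term. Leaving out 1 library moved it between -0.5 (without UNx CrePlus replicate 3) and -0.02 (without UNx CrePlus replicate 2), and with the female libraries alone it was 0.01. It also moved by more than 1.5 times without replicate 2 or 3 of sham CrePlus, to -0.03 and -0.4, and without replicate 3 of sham CreMinus or of UNx CreMinus, to -0.13 and -0.1. The largest negative estimates among the intercalated cell genes were those of Slc4a1 at -0.8 ± 0.63 and Slc26a7 at -0.56 ± 0.44 (adjusted p = 1 for both). DESeq2 called no member in any comparison other than the Cre effect averaged over surgery, where it called Atp6v1g3 (adjusted p = 0.0492) and 2.41% of all genes. In the other comparisons DESeq2 called from 0% to 1.21% of all genes.

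In the authors' 6 deposited tables, some of which are second versions of the same comparison, no member had an adjusted p under 0.05. The share of all genes called in them was not counted here, so this result has no background beside it. The smallest in the authors' deposited table of CrePlus against CreMinus after UNx was that of Atp6v1g3, at 0.0706. In the authors' deposited table for the sham groups the smallest adjusted p of a member was 0.859. It was 0.669 in its second version, which leaves out sham CrePlus replicate 1. At an unadjusted p under 0.05 in the authors' DESeq2 test there were 12 members for Cre after UNx. There were 8 for the sham groups, 2 in their second version and 3 in each table of UNx against sham. Shares of all genes at this level were not counted either, so these counts cannot be read as an excess among the members. For scale, the edgeR fit on group means had 10.7% of all genes at an unadjusted p under 0.05 for Cre in UNx kidneys. In sham kidneys it had 4.05%.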

How the data were processed

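Whole kidney RNA from 12 mice was sequenced with SMART-Seq v4 libraries, per the labels' protocols. The deposited tables hold raw read counts per gene and log2 fold changes by the authors, their errors, p-values and adjusted p-values. Per the submitters' processing notes, reads were checked with FastQC 0.11.5, trimmed with cutadapt 1.11, counted with HTSeq and tested with DESeq2, on mm10 or GRCm38. Aligner, annotation and strand setting: not given in the sources used here. The deposited fold changes of the table of UNx groups are shrunken: a DESeq2 refit with a prior differed from them by a median of 0.000173. The other deposited tables were not refitted.

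Counts were fitted with edgeR 4.0.16 in R 4.3.3 (TMM, filterByExpr, 4 group means, quasi-likelihood test, residual df of 8), with Benjamini-Hochberg adjustment over 14970 genes and a threshold of 0.05. The low count filter kept all members. Of 24067 rows, 5 repeated a symbol, among them Aqp4, and were resolved to 24062 genes. The scripts were tested on simulated data. Alternatives were a sex term, sex and depth terms, only the libraries compared, DESeq2 1.42.0, RLE size factors, no filter, female libraries only and leaving out each library. Leaving out each library with the sex term, DESeq2 with the sex term, the strata and the sex coefficient were added after seeing the data.

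Members and lists were chosen with earlier results of these data known. Values in every library are given for members with the smallest unadjusted p-values and for the defining genes of both cell types. From lists of other genes, called genes or otherwise those of smallest p are named. Replicate numbers follow accession order and pair no samples. The p-values reflect how libraries of different mice vary, and technical variation is part of that spread.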

Additional observations from a re-analysis of the deposited data

How the results depend on the processing

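For the Cre effect averaged over surgery, 0 members were called on group means, 5 with the sex term, 1 with DESeq2 and 11 with DESeq2 and the sex term, against 0.521%, 1.97%, 2.41% and 4.21% of all genes. Leaving out 1 library gave 0 to 1 calls on group means, with Oxgr1 called without UNx CrePlus replicate 3 (adjusted p = 0.0363; 0.898% of all genes), and 0 to 7 with the sex term, where 0.681% to 2.65% of all genes were called. These were 4 without sham CreMinus replicate 2, 3 without sham CreMinus replicate 1 or sham CrePlus replicate 2, 2 without the first CrePlus library of either surgery or the second library of either UNx group, and 1 without sham CrePlus replicate 3 or UNx CreMinus replicate 3. The cause was not tested. The other 6 comparisons gave no called member under any alternative run, where at most 1.21% of all genes were called. No called value changed sign. The members' median Cre effect in sham kidneys, -0.09 with all libraries, was -0.32 to 0.04 when 1 was left out. The ranges were -0.53 to -0.13 for Cre in UNx kidneys, -0.25 to -0.02 for Cre averaged, -0.37 to -0.11 for UNx averaged and -0.5 to -0.02 for the interaction. The fit of only the libraries compared was not run for the averages and the interaction, which use all libraries. No paired analysis was possible because replicate numbers follow accession order and the labels give none. With 3 mice a group and sex and depth uneven over groups, small differences in these genes may have been missed.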
